A study of Mus musculus with 35 samples.

Results

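A list of 37 genes that mark macrophages and other myeloid cells was followed in mouse quadriceps muscle after block of myostatin signalling. A member was taken from the deposited table where its annotated symbol was exactly that of the list, and the highest-mean measurement over all 35 arrays stood for a gene with more than 1. In this way 36 of the 37 members were measured, among 19938 genes tested in all. Lyn, a Src-family kinase, matched no measurement with that symbol alone and was not analysed here. The members were grouped by role into Fc receptors with their signalling adaptors, integrins and pan-leukocyte surface proteins, pattern recognition receptors, a lineage receptor with its transcription factor, the NADPH oxidase, lysosome and phagosome proteins, leukocyte actin proteins, and S100 proteins with a galectin.

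Macrophages reside between the fibres of skeletal muscle, where they clear debris and exchange signals with satellite cells and fibroblasts. They depend on colony stimulating factor 1 through its receptor Csf1r, and on the transcription factor PU.1, the product of Spi1, for their identity. Most of the listed genes serve engulfment and killing: Fc receptors and integrins bind particles, the oxidase makes reactive oxygen, and lysosomal enzymes digest what was taken up. Many are shared with monocytes, neutrophils, dendritic cells and, for the pan-leukocyte genes, lymphocytes.

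The arrays measured RNA from the quadriceps of female mice aged 2 months, 1 array per mouse, in 4 classes. Control mice were compared with Mstn-null mice, which lack the gene for myostatin, a secreted brake on muscle growth. The other 2 classes had received ActRIIB-Fc, once in one and as 4 doses in the other. This soluble activin type IIB receptor traps myostatin and related ligands. Each class had 3 mice in experiment 1, and in experiment 2, an independent follow-up, it had 5 mice, or 8 for the Mstn-null class. Strain, the amount and spacing of the doses, and the treatment given to controls are not named in the sources used here. Nothing says that the Mstn-null mice received an agent.

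The medians of the arrays were 4.39 to 4.52 on the log2 scale in experiment 1, while experiment 2 ran from 6.06 to 6.27. Every level below is therefore set only against levels of the same experiment. Mstn was lower in the Mstn-null class by the label's direction, at a log2 change of -2.30 ± 0.23 (SE; limma adjusted p = 3.54e-08). Muscle fibre markers were abundant, with mean log2 levels from 13.11 to 13.61 over the arrays of experiment 2. As a gauge of background in these female mice, 33 of the 36 members lay above the highest of 3 Y-linked genes on all 35 arrays, and the exceptions were Clec7a on 33 arrays, S100a8 on 25 and Tlr7 on 21. Values of Lyz2 and Lilrb4a are uncertain, because each has a near-identical copy, Lyz1 and Lilrb4b, whose RNA the probes may share.

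The promoters of the members, whether they rose or not, were searched for the letters GAGGAA, the core of the sequence that PU.1 binds, read on both strands (TTCCTC on the other). RefSeq windows of 250 bases before the gene start, on GRCm38.p6, existed for 25 members, some with several starts, giving 30 windows. GAGGAA or its complement was in 14 of the 30 windows, or 46.67%, belonging to 12 of the 25 genes, and in 23.25% of all 32851 windows. The longer GAGGAAGT was in 3.333% of member windows and 2.441% of all, and AGGAAG, which overlaps the core, was in 40% and 29.48%. The TATA box TATAAA was in 13.33% and 12.37%, the AP-1 motif TGANTCA in 10% and 6.749%, and the C/EBP palindrome TTGCGCAA in 0 of 30 and 0.1644%. Of the 10 members with a window that rose after 4 doses, 5 held GAGGAA or its complement, a share close to the 12 of all 25. Such a match describes letters in a window and shows no binding.
Windows are shown for 3 of the 5 genes that rose and hold a match, Cd68, Ctss and Cd53, for Mpeg1, which rose and holds none, and for Itgam, which holds a match and rose in Mstn-null muscle but not after 4 doses. Fcer1g, Itgax, Cybb and Lcp1 rose and hold none either. Each window reads 5′ to 3′ on the strand of its gene, ends just before the start, and has any match in capitals. None of these 5 windows overlaps a gene of the RefSeq table. The match begins 225 bases before the start in Cd68, 164 in Ctss, 39 in Cd53, and 84 and 15 in Itgam.
Cd68, chr11:69666171-69666420, minus strand: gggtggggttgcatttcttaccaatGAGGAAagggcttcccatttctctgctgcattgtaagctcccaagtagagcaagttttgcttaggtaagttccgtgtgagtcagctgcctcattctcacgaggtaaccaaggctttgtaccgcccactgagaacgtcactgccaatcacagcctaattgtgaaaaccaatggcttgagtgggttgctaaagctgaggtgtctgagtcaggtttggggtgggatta
Ctss, chr3:95526536-95526785, plus strand: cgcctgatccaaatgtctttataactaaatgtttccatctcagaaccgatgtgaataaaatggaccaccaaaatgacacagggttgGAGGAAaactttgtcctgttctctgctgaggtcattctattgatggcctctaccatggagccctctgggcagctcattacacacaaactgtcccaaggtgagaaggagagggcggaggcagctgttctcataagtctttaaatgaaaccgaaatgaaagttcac
Cd53, chr3:106790150-106790399, minus strand: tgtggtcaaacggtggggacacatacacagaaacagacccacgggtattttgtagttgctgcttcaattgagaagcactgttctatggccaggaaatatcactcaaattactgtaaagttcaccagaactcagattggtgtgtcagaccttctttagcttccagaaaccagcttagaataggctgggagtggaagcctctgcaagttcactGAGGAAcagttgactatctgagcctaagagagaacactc
Mpeg1, chr19:12460520-12460769, plus strand: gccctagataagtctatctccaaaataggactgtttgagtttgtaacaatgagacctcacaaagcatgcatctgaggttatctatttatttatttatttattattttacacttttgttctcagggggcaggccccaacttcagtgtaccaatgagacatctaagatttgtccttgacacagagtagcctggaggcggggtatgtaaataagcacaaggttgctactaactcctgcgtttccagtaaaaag
Itgam, chr7:128062390-128062639, plus strand: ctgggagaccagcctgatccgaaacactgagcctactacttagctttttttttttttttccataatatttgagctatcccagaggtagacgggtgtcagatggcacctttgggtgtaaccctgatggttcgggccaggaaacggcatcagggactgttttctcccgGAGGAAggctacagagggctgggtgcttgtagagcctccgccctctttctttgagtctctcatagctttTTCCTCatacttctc

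Myeloid genes were higher in muscle after 4 doses of ActRIIB-Fc. In the fit over both experiments 13 of the 36 members rose and 0 fell, where 1.91% of all genes tested rose, 1.23% fell and 3.14% were called in either direction. The members were chosen with earlier results of these data known, so these shares describe the list and do not test it. A gene was called at a limma adjusted p under 0.05 over all 19938 genes. The median log2 change of the members was 0.25, against 0.02 over all genes, and 33 members had a positive change. With arrays centred on their medians 9 members rose, and the share of higher genes among all calls went from 60.7% to 42.3%. All genes called higher then numbered 232, against 380 before. In bulk muscle, more cells of a type and more RNA per cell cannot be told apart, which touches every comparison here.

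The mean over the 36 members gives the pattern array by array. In experiment 2 it ran from 5.90 to 6.08 log2 units in the 5 controls, from 6.06 to 6.42 after 1 dose, from 6.32 to 6.48 after 4 doses and from 6.09 to 6.53 in the 8 Mstn-null mice. The arrays after 4 doses thus lay clear of every control, while 1 array after 1 dose, replicate 4, fell among the controls. In experiment 1 the ranges were 4.19 to 4.47 in controls, 4.18 to 4.47 after 1 dose, 4.41 to 4.52 after 4 doses and 4.26 to 4.43 in Mstn-null mice, and all classes overlapped the controls.

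**Figure D1:**
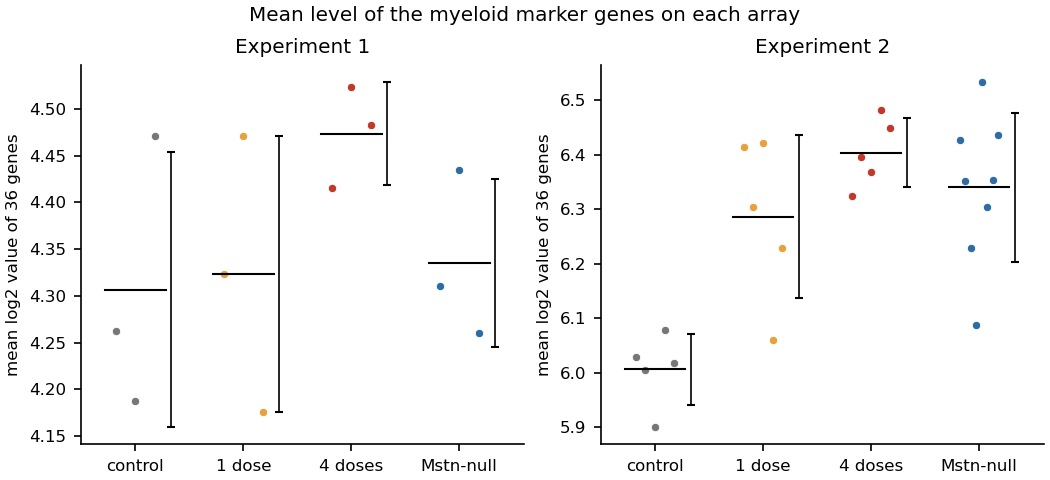
Mean log2 expression of the 36 measured members on each array (points), by class and experiment, with the class mean (line) and SD (bar); levels are not comparable between the experiments. In experiment 2 all 5 arrays after 4 doses lie at or above 6.32, above the highest control at 6.08, whereas in experiment 1 the classes overlap.

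**Figure D2:**
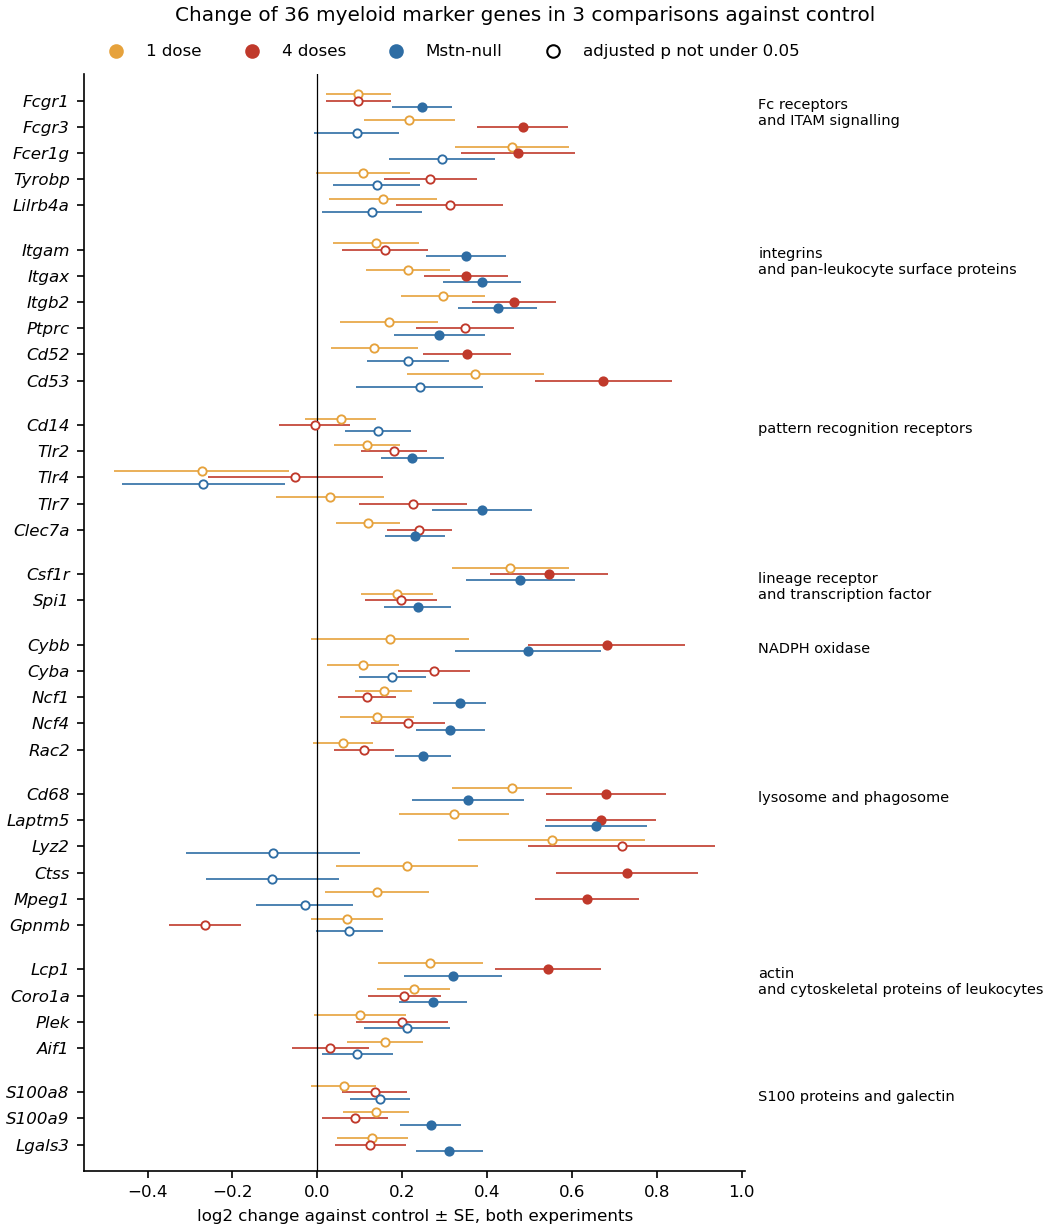
Log2 change of each measured member, with its SE, for Mstn-null, 1 dose and 4 doses against control, from the fit over both experiments; filled points passed an adjusted p under 0.05. Of 36 members, 20 passed in Mstn-null mice, 0 after 1 dose and 13 after 4 doses, all higher than control.

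The lysosome and phagosome group held the largest changes after 4 doses. Of its 6 members, 4 rose: Cd68, Laptm5, Ctss and Mpeg1. The median log2 change of the group was 0.67.

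Cd68 encodes a lysosomal glycoprotein in common use as a macrophage marker. In experiment 2 its log2 values were 6.16, 6.05, 5.90, 6.20 and 6.23 in controls and 6.80, 6.84, 6.66, 7.07 and 7.13 after 4 doses. In experiment 1 they were 4.56, 3.99 and 4.69 in controls and 4.57, 5.29 and 4.86 after 4 doses. The classes were apart in experiment 2 and overlapped in experiment 1, and the joint log2 change was 0.68 ± 0.14 (SE; limma adjusted p = 0.00298), a 1.60-fold rise.

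Ctss encodes cathepsin S, a lysosomal protease that trims the invariant chain during antigen presentation. Its log2 values in experiment 2 were 7.28, 7.47, 7.16, 7.60 and 7.34 in controls and 8.09, 8.33, 8.24, 8.54 and 8.67 after 4 doses. Those of experiment 1 were 5.37, 5.28 and 5.89 in controls and 5.65, 6.35 and 5.36 after 4 doses, where 1 treated array lay below 2 controls. The joint log2 change was 0.73 ± 0.17 (SE; limma adjusted p = 0.00756), the largest called among the members in this comparison.

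Mpeg1 encodes perforin-2, a pore-forming protein of phagosomes. In experiment 2 it read 5.72, 5.97, 5.54, 5.98 and 6.0 in controls and 6.42, 6.66, 6.22, 6.73 and 6.91 after 4 doses, in log2 units. In experiment 1 it read 3.88, 3.44 and 3.94 in controls and 4.14, 4.46 and 4.01 after 4 doses. Every treated array was above every control in both experiments, and the joint log2 change was 0.64 ± 0.12 (SE; limma adjusted p = 0.00131).

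Laptm5, a lysosomal membrane protein of blood cells, was at log2 values of 6.70, 6.48, 6.28, 6.64 and 6.5 in the controls of experiment 2 and at 7.14, 7.18, 7.14, 7.35 and 7.47 after 4 doses. In experiment 1 the values were 5.12, 4.55 and 5.45 in controls and 5.42, 5.89 and 5.49 after 4 doses. The groups did not overlap in experiment 2, 1 treated array lay below the highest control in experiment 1, and the joint log2 change was 0.67 ± 0.13 (SE; limma adjusted p = 0.00134).

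Lyz2, the lysozyme of macrophages, had log2 values of 8.57, 8.47, 8.10, 8.38 and 8.38 in the controls of experiment 2 and 9.09, 9.29, 9.12, 9.59 and 9.38 after 4 doses. The controls of experiment 1 spread widely, at 6.40, 5.56 and 6.94, and overlapped treated arrays at 6.71, 7.05 and 6.31. Its joint log2 change of 0.72 ± 0.22 (SE) missed the threshold, at a limma adjusted p of 0.0666.

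Gpnmb, a glycoprotein of lipid-laden and lysosome-stressed macrophages, was the member with the most negative change. Its log2 values in experiment 2 were 6.24, 6.27, 6.37, 6.51 and 6.57 in controls and 6.36, 5.80, 6.03, 6.01 and 5.85 after 4 doses, so that 4 of 5 treated arrays lay below all controls. In experiment 1 controls read 4.57, 4.42 and 4.48 and treated arrays 4.42, 4.47 and 4.36. The joint log2 change of -0.27 ± 0.08 (SE) was not called, at a limma adjusted p of 0.0843, and within experiment 2 alone it was called, at -0.38 ± 0.09 (SE; limma adjusted p = 0.0107).

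**Figure D3:**
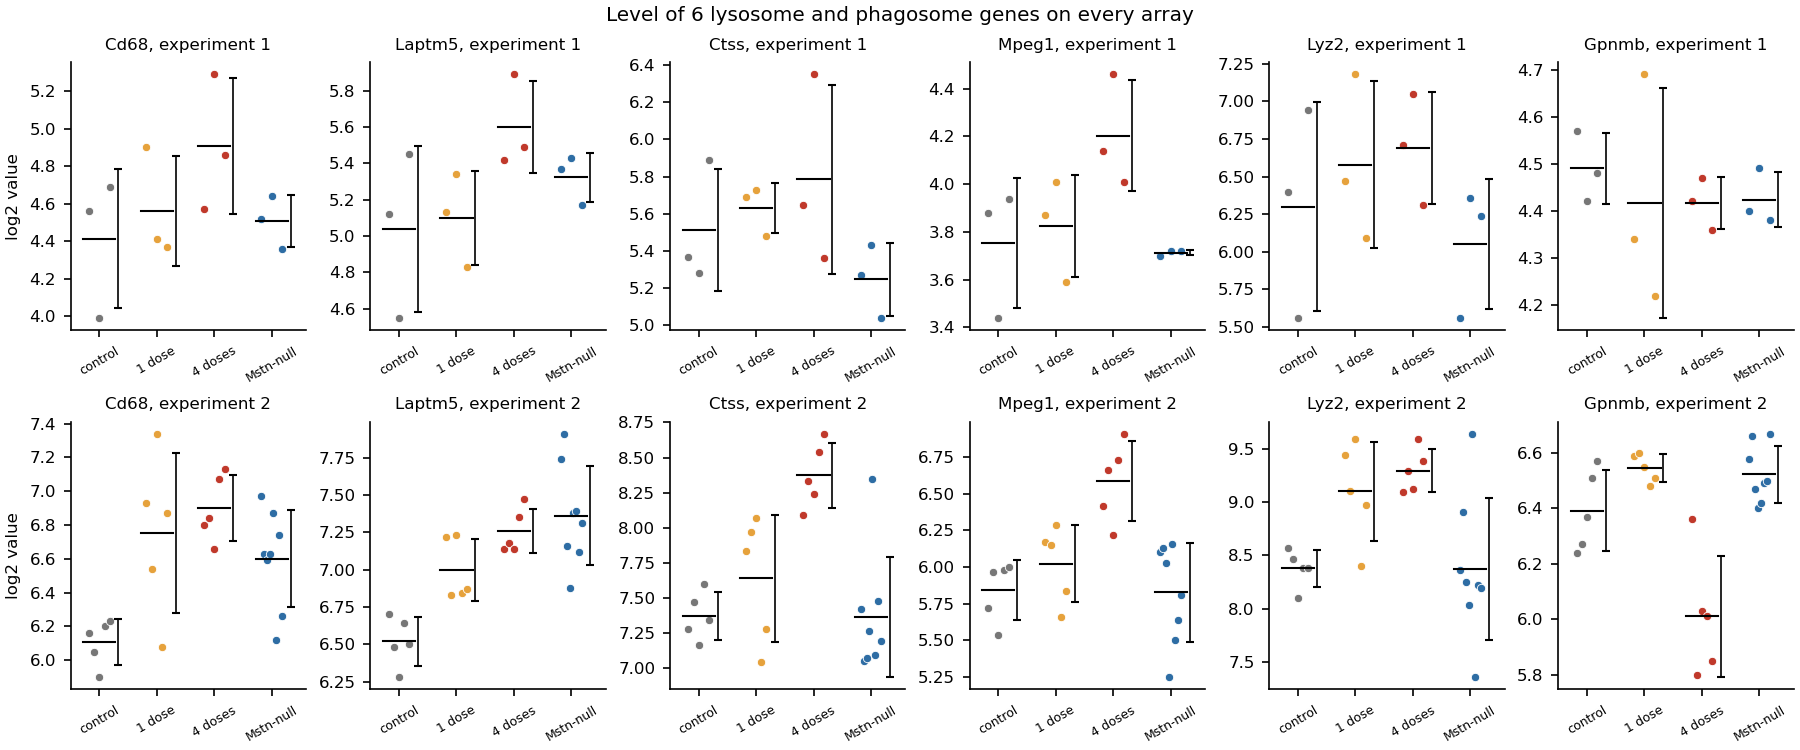
Log2 expression of the 6 lysosome and phagosome members on each array (points) by class and experiment, with class mean (line) and SD (bar). In experiment 2 Ctss and Mpeg1 are high after 4 doses and mostly near control in Mstn-null mice, Laptm5 is high in both, and Gpnmb is low after 4 doses. In experiment 1 Mpeg1 after 4 doses lies above control, while Ctss after 4 doses and Laptm5 in both classes overlap it.

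Among integrins and pan-leukocyte proteins 4 of 6 members rose after 4 doses, with a group median of 0.35 on the log2 scale. Itgb2, the beta-2 integrin chain shared by leukocyte adhesion receptors, read 6.12, 5.87, 5.72, 5.99 and 5.89 in the controls of experiment 2 and 6.27, 6.52, 6.72, 6.56 and 6.5 after 4 doses. In experiment 1 it read 4.27, 4.29 and 4.45 in controls and 4.58, 4.76 and 4.41 after treatment. Only experiment 2 kept the groups apart, and the joint log2 change was 0.46 ± 0.10 (SE; limma adjusted p = 0.00412).

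Cd53, a leukocyte tetraspanin, read 6.80, 6.68, 6.24, 7.22 and 6.89 in the controls of experiment 2 and 7.65, 7.64, 7.48, 8.10 and 7.78 after 4 doses. In experiment 1 it read 4.08, 3.43 and 4.32 in controls and 4.17, 4.34 and 3.89 after 4 doses. The gap was complete in experiment 2 and absent in experiment 1, and the joint log2 change was 0.67 ± 0.16 (SE; limma adjusted p = 0.0110).

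Cd52, a small glycoprotein anchored to the surface of lymphocytes and macrophages, stood at 5.37, 5.25, 5.47, 5.32 and 5.43 in the controls of experiment 2 and at 5.75, 5.96, 6.12, 6.11 and 6.01 after 4 doses. In experiment 1 the controls were at 3.67, 3.80 and 4.19 and the treated arrays at 3.76, 3.84 and 3.79. The joint log2 change of 0.35 ± 0.10 (SE; limma adjusted p = 0.0494) came with a change of -0.09 in experiment 1. The difference between the experiments was 0.71 ± 0.17 (SE), with a limma adjusted p of 0.147, the smallest of that test among the members.

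Itgax, the CD11c integrin chain of dendritic cells and some macrophages, had log2 values in experiment 2 from 4.90 to 5.45 with a median of 4.97 in controls, and from 5.35 to 5.76 with a median of 5.45 after 4 doses. The highest control overlapped the treated arrays, and the joint log2 change was 0.35 ± 0.10 (SE; limma adjusted p = 0.0398). Ptprc, the leukocyte common antigen CD45, ran from 5.90 to 6.30 in controls and from 6.49 to 6.79 after 4 doses without overlap in experiment 2, but its joint log2 change of 0.35 ± 0.11 (SE) was not called (limma adjusted p = 0.0969). Itgam, the CD11b chain that pairs with Itgb2, read 5.68, 5.81, 5.58, 5.67 and 5.80 in the controls of experiment 2 and 5.95, 6.03, 5.97, 6.07 and 6.0 after 4 doses. In experiment 1 the controls were at 4.08, 3.92 and 4.55 and overlapped treated arrays at 3.82, 4.41 and 4.11. Its joint log2 change was 0.16 and was not called.

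Fc receptor and adaptor genes gave 2 rises among 5 measured, with a group median of 0.31 on the log2 scale. Fcgr3, a low-affinity receptor for immunoglobulin G, read 6.07, 5.56, 5.90, 6.19 and 6.19 in the controls of experiment 2 and 6.69, 6.67, 6.37, 6.90 and 6.89 after 4 doses. In experiment 1 it read 4.03, 4.08 and 4.20 in controls and 4.21, 4.12 and 4.24 after treatment. Experiment 2 separated the groups, and the joint log2 change was 0.48 ± 0.11 (SE; limma adjusted p = 0.00536).

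Fcer1g, the signalling gamma chain that several Fc receptors need, read 6.46, 6.44, 5.89, 6.16 and 6.30 in the controls of experiment 2 and 6.97, 7.19, 6.79, 7.23 and 6.72 after 4 doses. In experiment 1, controls at 4.91, 4.83 and 5.39 surrounded treated arrays at 5.01, 5.09 and 5.16. In the fit of both experiments the log2 change was 0.47 ± 0.13 (SE; limma adjusted p = 0.0414). The other 3 of this group were not called: the high-affinity receptor Fcgr1 had a log2 change of 0.10, the adaptor Tyrobp 0.27 and the inhibitory receptor Lilrb4a 0.31.

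Csf1r, the receptor through which colony stimulating factor 1 keeps macrophages alive, rose after 4 doses. Its log2 values in experiment 2 were 6.88, 6.93, 6.56, 6.76 and 6.75 in controls and 7.35, 7.45, 7.40, 7.66 and 7.47 after treatment. In experiment 1 they were 5.48, 5.29 and 5.78 in controls and 5.88, 5.82 and 5.78 after treatment. The groups were apart in both experiments, in experiment 1 by a margin too small to show in these rounded values, and the joint log2 change was 0.55 ± 0.14 (SE; limma adjusted p = 0.0182). Spi1, which encodes PU.1, had a log2 change of 0.20 that was not called, although its 5 treated values of experiment 2, from 5.82 to 5.97, all lay above controls from 5.41 to 5.78.

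For the NADPH oxidase, 1 of 5 members rose after 4 doses and the group median was 0.21 on the log2 scale. This was Cybb, the catalytic gp91 subunit, which read 6.16, 6.12, 5.82, 6.66 and 6.18 in the controls of experiment 2 and 6.92, 6.72, 6.68, 7.23 and 7.23 after 4 doses. In experiment 1 the values were 3.87, 3.57 and 4.06 in controls and 4.16, 4.94 and 4.02 after treatment. The groups were just apart in experiment 2 and overlapped in experiment 1. Jointly the log2 change was 0.68 ± 0.19 (SE; limma adjusted p = 0.0304).

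Cyba, the p22 partner of Cybb in the membrane, was apart from control in both experiments but by less. It read 5.94, 5.76 and 5.76 in the controls of experiment 1 against 5.96, 5.98 and 6.19, and 6.62, 6.75, 6.60, 6.67 and 6.42 in the controls of experiment 2 against 7.04, 6.91, 7.07, 6.81 and 6.78. The joint log2 change of 0.28 ± 0.09 (SE) had a limma adjusted p of 0.0710. Of the cytosolic subunits, Ncf1 (p47) had a log2 change of 0.12, Ncf4 (p40) 0.21 and the GTPase Rac2 0.11, and none was called.

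Among actin proteins of leukocytes, 1 of 4 rose. Lcp1, the actin-bundling L-plastin, read 6.57, 6.70, 6.22, 6.34 and 6.03 in the controls of experiment 2 and 6.87, 7.16, 7.11, 7.17 and 7.23 after 4 doses, without overlap. In experiment 1 it read 4.62, 4.86 and 4.86 in controls and 4.76, 5.15 and 5.10 after treatment, and the joint log2 change was 0.54 ± 0.12 (SE; limma adjusted p = 0.00748). Coro1a, an actin regulator of phagosomes, and Plek, a protein kinase C substrate, each had a log2 change of 0.20, and Aif1, also called Iba1, had 0.03. None of these 3 was called.

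Neither the 5 pattern recognition receptors nor the 3 S100 and galectin genes held a call after 4 doses. The beta-glucan receptor Clec7a came nearest, with a log2 change of 0.24 ± 0.08 (SE; limma adjusted p = 0.0793) and values in experiment 2 from 4.88 to 5.30 above controls from 4.63 to 4.87. The Toll-like receptors Tlr2 for bacterial lipoproteins, Tlr7 for single-stranded RNA and Tlr4 for endotoxin changed by 0.18, 0.23 and -0.05, and Cd14, the co-receptor of Tlr4, by -0.01. S100a8 and S100a9, whose products form calprotectin, had changes of 0.13 and 0.09, and Lgals3, which encodes galectin-3, had 0.13. These 8 values did not pass the test.

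The rise after 4 doses was called in experiment 2 and not in experiment 1. Within experiment 2, 11 members rose and 1 fell, against 2.96% of all genes called, 1.98% higher and 0.978% lower, and the median log2 change of the 36 was 0.32. Within experiment 1, 0 members were called by limma, against 0.471% of all genes, with a median of 0.15, 30 positive changes and 5 members at an unadjusted p under 0.05. The difference between the experiments was called by limma for 0 members (9 at an unadjusted p under 0.05), against 0.00502% of all genes, and 28 of 36 members had a positive change in both.

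The arrays themselves were counted as well. After 4 doses 21 members lay wholly above the controls in experiment 2, where 4.15% of all genes did, and 4 members did so in experiment 1, where 5.78% of all genes did: Csf1r, Cyba, Mpeg1 and S100a8. Csf1r, Cyba and Mpeg1 were apart in both experiments, as were 0.873% of all genes.

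**Figure D4:**
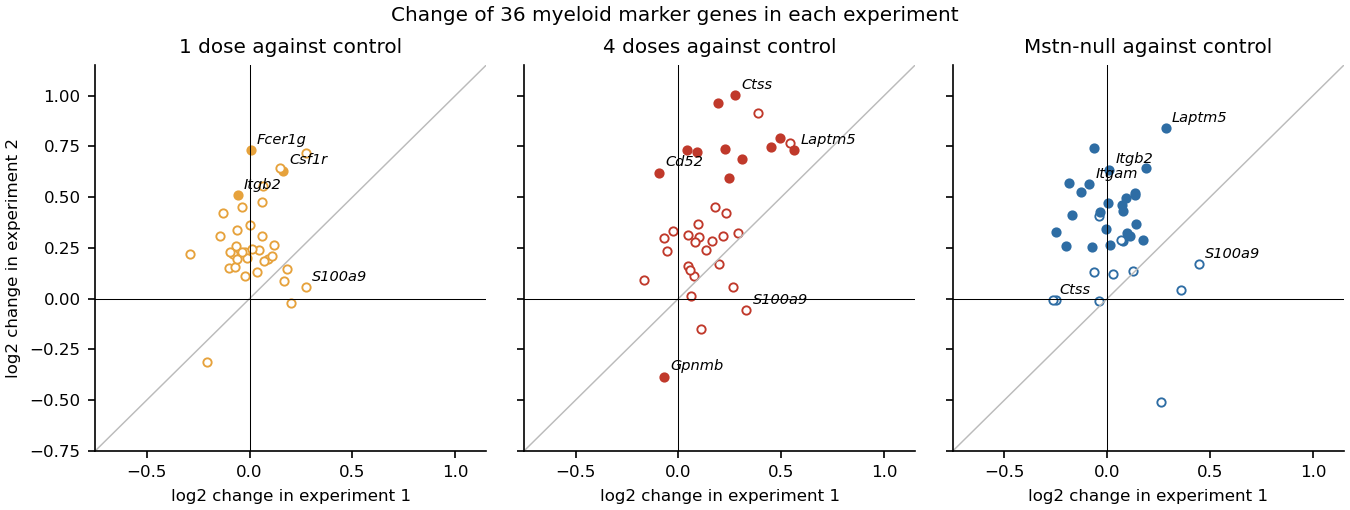
Log2 change of each member against its own controls in experiment 1 (x axis) and experiment 2 (y axis), in a panel each for 1 dose, 4 doses and Mstn-null; filled points were called in experiment 2 and the grey line marks equal changes. Changes were larger in experiment 2 for 31, 30 and 33 of the 36 members in these panels.

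After 1 dose of ActRIIB-Fc 0 of 36 members were called by limma, against 1.11% of all genes, 0.542% higher and 0.572% lower. Their median log2 change was 0.15, against 0.02 over all genes, 35 of 36 changes were positive and 12 members had an unadjusted p under 0.05. Within experiment 2, 3 members rose, against 1.63% of all genes called and 0.933% higher: Fcer1g at 0.73 ± 0.15 (SE; limma adjusted p = 0.00739), Csf1r at 0.63 ± 0.16 (adjusted p = 0.0327) and Itgb2 at 0.51 ± 0.11 (adjusted p = 0.00880). Within experiment 1, limma called 0 members (1 at an unadjusted p under 0.05), against 0.0502% of genes, and the difference between the experiments was called for 0 members (7 at an unadjusted p under 0.05), against 0% of genes.

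Fcer1g, the member with the smallest p after 1 dose, was apart from control in experiment 2. After 1 dose it read 7.17, 6.79, 7.32, 6.55 and 7.07 in experiment 2, all above controls at or below 6.46, and 4.96, 5.39 and 4.80 in experiment 1, where they overlapped controls from 4.83 to 5.39. Its joint log2 change of 0.46 ± 0.13 (SE) was not called (limma adjusted p = 0.0922). In experiment 2, 10 members lay wholly above control after 1 dose, against 4.17% of all genes, and in experiment 1 Aif1 did so, against 4.71%, which left 0 members in both, against 0.406%. Tlr7 and Ncf4 lay wholly below control after 1 dose in experiment 1, as 4.47% of genes did. In experiment 2 replicate 4 had the lowest value of the 1-dose group for Cd68, at 6.08, Lyz2, at 8.40, and Csf1r, at 6.81.

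Between 4 doses and 1 dose no member was called in the joint fit by limma, against 0.321% of all genes, with 0.0451% of all genes lower, and the median log2 difference was 0.13, with 8 members at an unadjusted p under 0.05. Mpeg1 was nearest to a rise, at 0.49 ± 0.12 (SE; limma adjusted p = 0.0650), with 6.17, 6.15, 6.29, 5.66 and 5.84 after 1 dose in experiment 2. Gpnmb was nearest to a fall, at -0.34 ± 0.08 (SE; limma adjusted p = 0.0716). After 1 dose Gpnmb read 6.59, 6.60, 6.55, 6.48 and 6.51 in experiment 2, all above the highest array after 4 doses at 6.36, as was so for 0.908% of genes. Within that experiment the difference of -0.54 ± 0.09 (SE) was called (limma adjusted p = 0.00191), the 1 member called, against 0.236% of genes in either direction and 0.0150% lower. Ctss and Cd52 were the members whose arrays after 4 doses all lay above those after 1 dose in experiment 2, as 1.19% of genes did.

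In Mstn-null muscle 20 of 36 members were higher and 0 lower than in control, in a comparison that called 41.8% of all genes, 25.4% higher and 16.4% lower. The median log2 change of the members was 0.24 against 0.09 over all genes, and 32 changes were positive. It was 0.02 in experiment 1 alone and 0.33 in experiment 2 alone. With arrays centred on their medians 10 members were higher, and the share of higher genes among all calls went from 60.7% to 31.3%. With quantile normalization 7 members were higher. All genes called higher numbered 5062 in the main fit, 1905 with centring and 3160 with quantile normalization. By role, 4 of 5 NADPH oxidase genes, 4 of 6 integrin and pan-leukocyte genes, 3 of 5 pattern recognition receptors, both lineage genes, 2 of 4 actin genes, 2 of 3 S100 and galectin genes, 2 of 6 lysosome genes and 1 of 5 Fc receptor genes rose. The spread of log2 values over all genes of an array also differed with genotype: the interquartile range averaged 2.28 in Mstn-null and 2.56 in control arrays of experiment 2, and 2.42 and 2.62 in experiment 1. With that range as a covariate 3 members were called higher, Cybb, Cd68 and Laptm5, beside 325 of all genes. The part of the range in the other members was not tested further.

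Laptm5 was the member with the smallest adjusted p in Mstn-null muscle. It ran from 6.88 to 7.91 with a median of 7.35 in the 8 Mstn-null mice of experiment 2, above every control, and read 5.37, 5.43 and 5.17 in experiment 1, among the controls. Over both experiments the log2 change was 0.66 ± 0.12 (SE; limma adjusted p = 0.000115).

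In the fit over both experiments 4 oxidase subunits were called higher: Ncf1, Ncf4, Rac2 and Cybb. With the array interquartile range as a covariate only Cybb of these stayed called. Ncf1, the organizing p47 subunit, ran from 6.51 to 6.84 with a median of 6.66 in experiment 2, above controls at 6.28, 6.17, 6.18, 6.16 and 6.32, and it read 4.93, 5.09 and 4.98 in experiment 1 against 4.89, 5.02 and 4.89. Its joint log2 change was 0.33 ± 0.06 (SE; limma adjusted p = 0.000151). Ncf4 changed by 0.31 ± 0.08 (SE; adjusted p = 0.00315), Rac2 by 0.25 ± 0.07 (adjusted p = 0.00360) and Cybb by 0.50 ± 0.17 (adjusted p = 0.0214), while Cyba at 0.18 was not called. Ncf4 in experiment 2 did not overlap control, whereas Rac2 did, with Mstn-null arrays from 6.89 to 7.30 and controls from 6.74 to 6.92. In experiment 1 Ncf4 averaged 4.23 in both classes and Cybb 4.02 against 3.83 in controls. Rac2 there ran from 5.16 to 5.35, above controls from 5.03 to 5.14, and 11.6% of all genes lay wholly above control in that experiment.

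The integrin chains Itgb2, Itgam and Itgax were called higher in the knockout over both experiments. In experiment 1 alone the change of Itgam was negative, at -0.09, and Itgam and Itgb2 differed between the experiments, as given below. Itgb2 ran from 6.18 to 6.89 with a median of 6.59 in experiment 2, above all controls, and read 4.23, 4.51 and 4.30 in experiment 1, where it overlapped them, for a joint log2 change of 0.42 ± 0.09 (SE; limma adjusted p = 0.000739). Itgam ran from 6.0 to 6.59 with a median of 6.30 in experiment 2, above controls from 5.58 to 5.81, and read 4.02, 4.26 and 4.01 in experiment 1, for a joint log2 change of 0.35 ± 0.09 (SE; limma adjusted p = 0.00415). Itgax changed by 0.39 ± 0.09 (adjusted p = 0.00157) and Ptprc by 0.29 ± 0.11 (adjusted p = 0.0304), while Cd52 at 0.21 and Cd53 at 0.24 were not called.

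Calls among lineage and pattern recognition genes followed. In experiment 1 alone the changes of Csf1r (-0.066) and Clec7a (-0.0044) were negative. Csf1r ran from 6.90 to 7.85 with a median of 7.59 in Mstn-null mice of experiment 2, overlapping the highest control at 6.93, and read 5.22, 5.73 and 5.41 in experiment 1, and its joint log2 change was 0.48 ± 0.13 (SE; limma adjusted p = 0.00420). Spi1 changed by 0.24 ± 0.08 (SE; adjusted p = 0.0169). Tlr7 changed by 0.39 ± 0.12 (adjusted p = 0.00985) at values near background, Clec7a by 0.23 ± 0.07 (adjusted p = 0.0107) and Tlr2 by 0.22 ± 0.07 (adjusted p = 0.0153). Tlr4 had a negative change of -0.27 that was not called, with Mstn-null values of experiment 2 from 5.41 to 7.10 that overlapped controls from 6.71 to 7.22, and Cd14 changed by 0.14 without a call.

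S100a9, a neutrophil and monocyte product, was the 1 member called within experiment 1, where 3.48% of all genes were called and 0.777% were higher. There it read 4.21, 3.98 and 4.02 in Mstn-null mice, above controls at 3.49, 3.84 and 3.54, a log2 change of 0.45 ± 0.12 (SE; limma adjusted p = 0.0307). In experiment 2 it ran from 5.47 to 5.87 with a median of 5.65, overlapping controls from 5.30 to 5.72, and the joint log2 change was 0.27 ± 0.07 (SE; limma adjusted p = 0.00423). Lgals3 changed by 0.31 ± 0.08 (SE; adjusted p = 0.00261) and S100a8 by 0.15 without a call.

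Of the remaining members Cd68 changed by 0.36 ± 0.13 (SE; limma adjusted p = 0.0304), Lcp1 by 0.32 ± 0.12 (adjusted p = 0.0271), Coro1a by 0.27 ± 0.08 (adjusted p = 0.00737) and Fcgr1 by 0.25 ± 0.07 (adjusted p = 0.00714), all higher in the knockout in the joint fit. In experiment 1 alone the changes of Lcp1 (-0.19) and Coro1a (-0.035) were negative. Not called were Fcgr3 at 0.09, Fcer1g at 0.29, Tyrobp at 0.14, Lilrb4a at 0.13, Plek at 0.21, Aif1 at 0.09, Gpnmb at 0.07, Lyz2 at -0.10, Ctss at -0.11 and Mpeg1 at -0.03, as log2 changes.

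Within experiment 2, 25 members were higher in Mstn-null muscle and 0 lower, against 45.6% of all genes called in either direction and 28.9% higher. Itgam and Itgb2 were the 2 members whose change differed between the experiments, among 1.68% of all genes, 1.35% with the larger value in experiment 2. Itgam changed by -0.09 in experiment 1 and 0.56 in experiment 2, a difference of 0.65 ± 0.18 (SE; limma adjusted p = 0.0498), and Itgb2 by 0.01 and 0.64, a difference of 0.62 ± 0.17 (SE; limma adjusted p = 0.0498). In experiment 2, 7 members lay wholly above control, against 8.24% of genes, in experiment 1 3 members did, against 11.6%, and in both 0 did, against 1.40%. Fcgr3 lay wholly below control in experiment 1, as 13.9% of genes did.

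Set directly against Mstn-null muscle, muscle after 4 doses differed in 7 of 36 members, or 19.4%, close to the 20.2% of all genes called in this comparison. Of the members 5 were higher and 2 lower, where 11.4% of all genes were higher and 8.75% lower. The higher ones were Ctss, Lyz2, Mpeg1, Cd53 and Fcgr3, and the lower ones Gpnmb and Ncf1. The median difference over the members was 0.01 on the log2 scale, against -0.06 over all genes. Both classes are also set against the same control arrays above, so their changes from control are given here only side by side.

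For Ctss the Mstn-null values of experiment 2 ran from 7.05 to 8.35 with a median of 7.23, all but 1 below the lowest array after 4 doses at 8.09, and in experiment 1 they were 5.27, 5.43 and 5.04 against 5.65, 6.35 and 5.36. The log2 difference was 0.84 ± 0.16 (SE; limma adjusted p = 0.000542), next to changes from control of 0.73 after 4 doses and -0.11 in Mstn-null mice. Mpeg1 ran from 5.25 to 6.16 with a median of 5.92 in Mstn-null mice of experiment 2 and read 3.70, 3.72 and 3.72 in experiment 1. Its arrays after 4 doses were all above them in both experiments, as was so for 0.456% of genes, with a log2 difference of 0.67 ± 0.11 (SE; limma adjusted p = 0.000211).

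Lyz2 varied more among Mstn-null mice, from 7.36 to 9.64 with a median of 8.23 in experiment 2 and at 5.56, 6.36 and 6.24 in experiment 1. It was higher after 4 doses by 0.82 ± 0.21 (SE; limma adjusted p = 0.00597) on the log2 scale, with 1 Mstn-null array above all treated ones. Fcgr3 was higher by 0.39 ± 0.10 (SE; adjusted p = 0.00685), against Mstn-null values from 5.90 to 6.62, and Cd53 by 0.43 ± 0.15 (adjusted p = 0.0388), against values from 6.63 to 7.69.

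Gpnmb was lower after 4 doses by a log2 difference of -0.34 ± 0.08 (SE; limma adjusted p = 0.00354). Its Mstn-null values of experiment 2 ran from 6.40 to 6.67, all above the treated arrays, as was so for 1.45% of genes, while in experiment 1 they were 4.40, 4.49 and 4.38 and overlapped the treated arrays. Ncf1 was lower by -0.22 ± 0.06 (SE; limma adjusted p = 0.0152), with treated arrays at 6.26, 6.35, 6.58, 6.35 and 6.38 in experiment 2. Cd68 at 0.32 ± 0.13 (SE; adjusted p = 0.0746) and Laptm5 at 0.01 were not called. Of the 7 calls in this comparison 6 held in every fit that left out 1 array, and that of Cd53 was lost in 8 of them.

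Within experiment 2 the same direct comparison called 5 members higher and 4 lower, against 30.1% of all genes, 14.7% higher and 15.3% lower, and within experiment 1 limma called 0 (4 at an unadjusted p under 0.05), against 0.0652%. After 1 dose, set against Mstn-null, Lyz2 was higher by 0.66 ± 0.21 (SE; limma adjusted p = 0.0244), and Tlr7 (-0.36 ± 0.12, adjusted p = 0.0340), Rac2 (-0.19 ± 0.07, adjusted p = 0.0432) and Ncf1 (-0.18 ± 0.06, adjusted p = 0.0459) were lower, where 16.8% of genes were called, 10.9% higher and 5.90% lower. None of these 4 calls held in every fit that left out 1 array. Within experiment 2 that comparison called Lyz2 higher and Itgam and Ncf1 lower, against 14.8% of genes, 9.65% higher and 5.12% lower.

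Markers of each cell type that could carry these genes were read beside the members. The marker lists were likewise chosen with earlier results of these data known. After 4 doses 6 of 11 macrophage markers rose, where 1.91% of all genes rose, with a median log2 change of 0.54. This list holds the members Cd68 and Csf1r, which rose, and Fcgr1, which was not called, at 0.10 (limma adjusted p = 0.609). Its count, median and mean level are thus partly those of members. Outside the members, the smallest p-values were those of Adgre1, the F4/80 antigen, at 0.56 ± 0.13 (SE; limma adjusted p = 0.00834), and of C1qb, a chain of complement C1q, at 0.68 ± 0.16 (SE; limma adjusted p = 0.0120). The mean level of the macrophage markers in experiment 2 ran from 6.64 to 6.94 in controls and from 7.31 to 7.54 after 4 doses. It ran from 6.78 to 7.53 after 1 dose and from 6.88 to 7.51 in Mstn-null mice. In experiment 1 it ran from 4.77 to 5.38 in controls, and every other class lay within that range. The ranges there were 5.07 to 5.35 after 4 doses, 4.95 to 5.33 after 1 dose and 4.80 to 5.05 in Mstn-null mice.

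Of 13 neutrophil markers limma called 0 after 4 doses, with 1 at an unadjusted p under 0.05, where 3.14% of all genes were called and 1.91% rose. This list holds the members S100a8 and S100a9. The median log2 change was 0.07, and the defining marker Ly6g had a change of -0.09. The mean level of the neutrophil markers in experiment 2 was 4.78 to 4.91 in controls and 4.74 to 5.01 after 4 doses. The highest Y-linked value, the gauge of background, averaged 4.17 in those controls. In experiment 1 the neutrophil means were 3.01 to 3.28 in controls and 3.09 to 3.46 after 4 doses. Of 4 monocyte markers 1 rose, the chemokine receptor Ccr2, at 0.68 ± 0.10 (SE; limma adjusted p = 3.84e-05). Limma called 0 of 7 dendritic cell, 10 T and NK cell, 6 B cell and 6 endothelial markers, with 1 T and NK cell marker and 0 of the others at an unadjusted p under 0.05, and 1 of 7 mast cell and basophil markers rose, Kit, at 0.36 (limma adjusted p = 0.00347). At the share of 3.14% over all genes, 0 calls in lists this short do not show that these cell types were unchanged.

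Of the 5 proliferation markers measured, 4 rose after 4 doses, where 1.91% of all genes rose, with a median of 0.94 and the smallest p for Mki67, at 0.98 ± 0.09 (SE; limma adjusted p = 7.90e-09). The mean of these markers in experiment 2 was 5.02 to 5.12 in controls and 5.80 to 6.06 after 4 doses. Which cells carried them, and their part in the rise of the members, was not tested.

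In Mstn-null muscle, where 25.4% of all genes were higher and 16.4% lower, 4 of 11 macrophage markers rose (median 0.20), as did 7 of 13 neutrophil markers (0.18), among them Mmp9 at 0.37 ± 0.10 (SE; limma adjusted p = 0.00370) and Camp at 0.26 ± 0.07 (adjusted p = 0.00584), 3 of 7 dendritic cell, 3 of 10 T and NK cell, 2 of 6 B cell, 2 of 7 mast cell and basophil, 1 of 4 monocyte and 1 of 2 erythroid markers. Of 6 endothelial markers 3 fell and 0 rose, with a median of -0.45. Neutrophil markers averaged 4.95 to 5.11 in the Mstn-null arrays of experiment 2, above the controls, and T and NK cell markers 5.10 to 5.40 against 4.98 to 5.09. The array median over all tested genes was also above the controls there, at 6.44 to 6.54 against 6.34 to 6.41. The highest Y-linked value, the gauge of background, averaged 4.31 and 4.17. Counts of the marker lists under other scalings were not computed. In experiment 2 the group mean of erythroid markers was 7.05 in Mstn-null and 6.53 in control mice, that of mast cell and basophil markers 5.39 and 5.09, of monocyte markers 5.03 and 4.79, of endothelial markers 7.93 and 8.40, and of muscle fibre markers 13.36 and 13.53. In experiment 1 these means were 5.32 and 5.11, 3.27 and 3.30, 2.82 and 2.86, 6.01 and 6.44, and 11.44 and 11.56, in the same order. Mast cell and monocyte markers were thus not higher in Mstn-null mice there. Neutrophil markers in experiment 1 averaged 3.23 to 3.28 in Mstn-null mice against 3.01 to 3.28 in controls. T and NK cell markers averaged 3.41 to 3.46 against 3.25 to 3.47. The part of these cell types in the higher members was not tested.

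**Figure D5:**
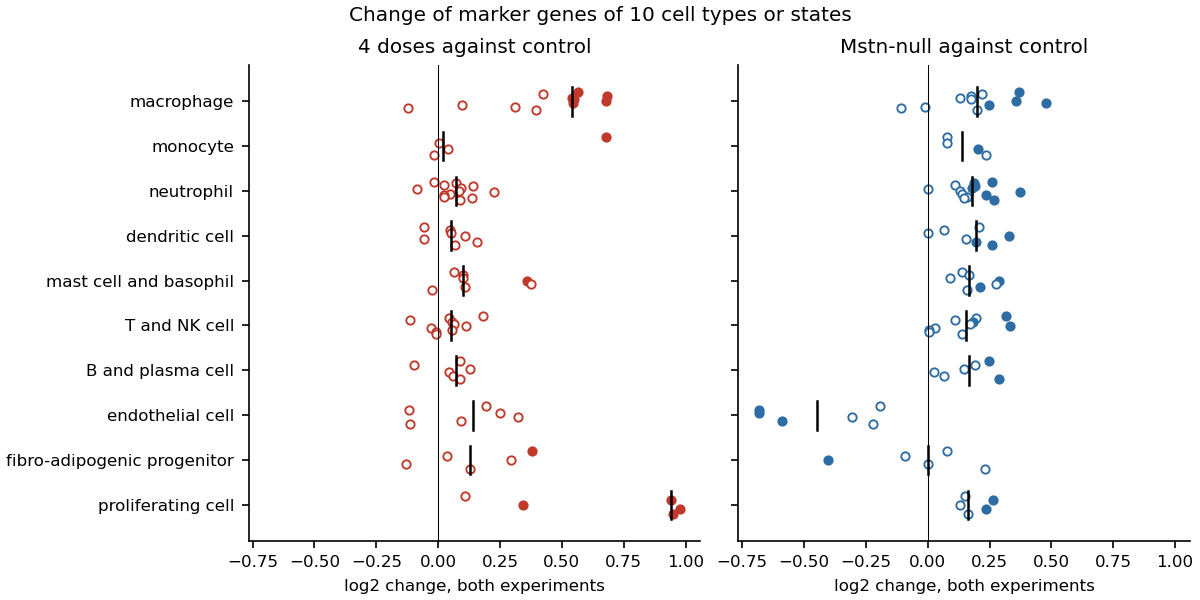
Log2 change against control of each measured gene in 10 marker lists after 4 doses and in Mstn-null mice, from the fit over both experiments; filled points were called and the black line is the list's median. After 4 doses macrophage and proliferation markers lie above 0, with medians of 0.54 and 0.94, and neutrophil markers lie near it at 0.07.

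A further list of 68 myeloid pathway genes outside the members was measured for 63. It too was chosen with earlier results of these data known. After 4 doses 9 rose and 0 fell, where 1.91% of all genes rose, with a median log2 change of 0.14 against 0.02 over all genes. The smallest p-values belonged to Lcp2, the SLP-76 adaptor of ITAM signalling, at 0.40 ± 0.07 (SE; limma adjusted p = 0.000656), the hyaluronan receptor Cd44 at 0.44 ± 0.10 (adjusted p = 0.00481), the actin regulator Nckap1l at 0.46 ± 0.10 (adjusted p = 0.00536) and the proton channel Hvcn1, which sustains the oxidase, at 0.29 ± 0.07 (adjusted p = 0.0190).

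In Mstn-null muscle 34 of these 63 were higher and 4 lower, where 25.4% of all genes were higher and 16.4% lower, with a median of 0.22 against 0.09 over all genes. Counts of this list under other scalings, which cut the members' calls in this comparison, were not computed. Led by p they were Csf2ra, a receptor chain for GM-CSF, at 0.46 ± 0.08 (SE; limma adjusted p = 5.31e-05), the selectin ligand Selplg at 0.37 ± 0.07 (adjusted p = 0.000133), Hvcn1 at 0.34 ± 0.07 (adjusted p = 0.000280) and Dock2, an activator of Rac, at 0.50 ± 0.10 (adjusted p = 0.000292). After 1 dose 2 were higher, Irf5 at 0.30 (limma adjusted p = 0.0241) and Hvcn1 at 0.28 (adjusted p = 0.0464), and 1 was lower, Cebpb at -0.44 (adjusted p = 0.0314).

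Leaving out 1 array at a time, 8 of the 13 genes that rose after 4 doses were called in every fit: Fcgr3, Itgb2, Cd53, Cd68, Laptm5, Ctss, Mpeg1 and Lcp1. The others each lost the call in at least 1 fit, Cd52 in 22, Fcer1g and Itgax in 10 each, Cybb in 8 and Csf1r in 1. The count fell from 13 to 8 without control replicate 3 of experiment 2, the calls lost being those of these 5 genes. In Mstn-null muscle 15 of the 20 were called in every such fit, and Ptprc, Spi1, Cybb, Cd68 and Lcp1 were not.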

How the data were processed

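RNA from 35 quadriceps samples, 1 array each, was measured after TRIzol extraction and whole-transcript sense-strand labelling with biotin, per the labels' protocols. The deposited values are log2 expression from RMA. The authors ran it, per the submitters' processing notes. Those notes list limma 3.4.4 as well, and R 2.11.1, and give neither a step. Whether both experiments were normalized together, the genome build of the probe design and signal over background are not given in the sources used here.

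Of 35556 deposited measurements, 21789 carried exactly 1 gene symbol in the platform annotation, 1621 several and 12146 none. The last 2 kinds were left out. For 999 genes with several measurements the highest mean was used, which left 19938 genes with no filter on dim ones. Class and experiment were terms in 1 fit of all arrays with lmFit and eBayes (limma 3.58.1 under R 4.3.3, two-sided). Genes were called where p, adjusted over every gene by Benjamini-Hochberg, was under 0.05. A fit of 8 group means gave the changes within each experiment and their difference. The fits were first tested on simulated data. The labels call samples of a group biological replicates. The tests therefore set class differences against the spread between mice, estimated over all classes. With 1 array per mouse that spread also holds differences between arrays, and the number of arrays limits the precision.

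The 37 members, their roles, the further pathway list and the marker lists came from general knowledge, and were chosen with earlier results of these data known. Array values are printed for members that passed in a comparison against control or are needed to show their role group. Of the other lists, up to 4 genes with the smallest p are named, and Ly6g is named besides as the defining neutrophil marker and Kit and Cebpb as single calls. Same-group arrays correlated between 0.954 and 0.996 and none was a copy of another. Promoter windows came from RefSeq. The alternatives tried were quantile normalization, centring, the array interquartile range as a covariate, each experiment alone, a filter on dim genes, the mean of a gene's measurements, array weights, a replicate block, and leaving out each array.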

Additional observations from a re-analysis of the deposited data

Results flagged for a closer look

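Of 148 groups of 4 to 10 arrays examined, 6 held an array far from the rest of its group, and chance alone gives about 1 in 20 such groups. Itgax was high in control replicate 1 of experiment 2, at a log2 value of 5.45 against 5.04 for the next, and in replicate 3 after 4 doses, at 5.76 against 5.47. Ptprc was low in control replicate 3, at 5.90 against 6.23. Tlr4 was high in control replicate 4, at 7.22 against 6.83. Cybb was low in Mstn-null replicate 4, at 6.06 against 6.68, the array with the lowest member mean of its group, at 6.09. Ctss was high in Mstn-null replicate 5, at 8.35 against 7.48, the array with the highest member mean, at 6.53.

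For 2 members the Mstn-null change differed between the experiments by a limma test of the difference, experiment 2 minus experiment 1. For Itgam it was 0.65 ± 0.18 (SE; limma adjusted p = 0.0498) and for Itgb2 0.62 ± 0.17 (SE; limma adjusted p = 0.0498), both near the threshold.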

How the results depend on the processing

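Counts here are of members called by limma. In Mstn-null against control the 20 higher members became 7 with quantile normalization, 10 with centring, 3 with the array interquartile range as a covariate and 0 in experiment 1 alone, where their median log2 change was 0.019. All genes called higher, 5062 in the main fit, became 3160, 1905, 325 and 81 in the same order. After 4 doses 13 became 0 in experiment 1 alone, where all genes called higher went from 380 to 19. After 1 dose 0 became 1 with the range covariate, 3 in experiment 2 alone and 5 with array weights, and the median was 0.0045 in experiment 1 alone. All genes called higher went from 108 to 177 with the covariate, 142 in experiment 2 alone and 1118 with array weights. For 4 doses against 1 dose 0 became 1 with the range covariate and 4 with array weights, where all genes called higher went from 55 to 105 and 321. For 4 doses against Mstn-null 5 higher became 2 with the range covariate and 0 in experiment 1 alone, and 2 lower became 1, 0 and, in experiment 2 alone, 4. Calls over all genes, 4019 in the main fit, were then 394, 3 and, in experiment 2 alone, 5716. For 1 dose against Mstn-null 1 higher became 0 with quantile normalization, the range covariate, array weights and experiment 1 alone, and 3 lower became 0 with centring, the range covariate and experiment 1 alone, and 1 in experiment 2 alone. Calls over all genes, 3354 in the main fit, were 3183 with quantile normalization, 3068 with centring and 501 with the covariate. They were 3759 with array weights, 400 in experiment 1 alone and 2611 in experiment 2 alone. The 1 member higher in the knockout within experiment 1 became 0 when that experiment was fitted alone, where all genes called higher went from 155 to 81. Experiment 1 alone has fewer arrays, and its member medians against control were also smaller than those of experiment 2 alone. They were 0.019 against 0.33 for Mstn-null, 0.0045 against 0.23 for 1 dose and 0.15 against 0.32 for 4 doses. The cause of these shifts, in experiment 1 and elsewhere, was not tested. In experiment 1 alone the sign turned for Itgam (-0.088), Clec7a (-0.0044), Csf1r (-0.066), Lcp1 (-0.19) and Coro1a (-0.035) in Mstn-null mice and for Cd52 (-0.093) after 4 doses. Centring moved the share of higher genes among all calls from 48.6% to 28.9% after 1 dose, from 56.6% to 74% for 4 doses against Mstn-null and from 64.9% to 77.9% for 1 dose against Mstn-null, where quantile normalization gave 52.4%. Leaving out 1 array gave 16 to 22 higher members for Mstn-null, 8 to 15 for 4 doses, 0 to 2 for 1 dose, 0 to 1 for 4 doses against 1 dose, 4 to 5 higher and 2 to 4 lower for 4 doses against Mstn-null, and 0 to 2 higher and 0 to 4 lower for 1 dose against Mstn-null. The 2 calls after 1 dose came without control replicate 3 of experiment 1 or 1-dose replicate 4 of experiment 2, the 1 call for 4 doses against 1 dose without replicate 3 of the 4-dose group of experiment 1 or Mstn-null replicate 4 of experiment 2, and the 4 lower members for 4 doses against Mstn-null without the former. For 1 dose against Mstn-null, 0 lower members were left without 1-dose replicate 3 of experiment 1 or Mstn-null replicates 1 or 8 of experiment 2, and 0 higher without 1-dose replicate 2 of experiment 1 or 1-dose replicates 1 or 3 of experiment 2. Of 132 summary values under all settings but those, 102 were counted as the same. A count had to stay within a set ratio of the main one, and a median within 0.116 log2 units. The sign of a median was free to turn: for 4 doses against Mstn-null 0.012 became -0.045 in experiment 2 alone and was counted as the same.

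Samples shared replicate numbers across classes, and 18 of 48 same-numbered pairs deviated together (r over 0.1, range -0.60 to 0.41). Differently numbered pairs were not compared, so this check cannot decide whether the numbers pair the mice. With the number as a replicate block 14 members were higher in Mstn-null mice, 11 after 4 doses and 0 after 1 dose, 3 were higher and 1 lower for 4 doses against Mstn-null, and 0 were higher and 0 lower for 1 dose against Mstn-null. Under that block all genes called higher numbered 2622 in Mstn-null mice, 376 after 4 doses and 112 after 1 dose. Calls over all genes were 1212 for 4 doses and 1244 for 1 dose against Mstn-null.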
